A study of Oryza sativa Indica Group with 10 samples.

Results

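The genes described here make the cellulose and hemicellulose of the rice cell wall and the sugar donors for them: the cellulose synthases (CESA), the cellulose synthase-like families CSLA to CSLH, the xylan arabinosyltransferase XAT2, the UDP-glucose 4-epimerases (UGE) and the GDP-mannose 3,5-epimerases (GME). They were found by name, from symbols and synonyms in the gene annotation of the array, and 42 genes matched. Of these, 36 had a probe set, out of 17905 genes with a probe set in the series, and where a gene had several, the probe set of highest mean signal stood for it. The 36 were 9 CESA genes, 20 CSL genes, XAT2, 4 UGE and 2 GME genes. CSLA3, CSLA4, CSLE6, CSLF3, CSLF4 and CSLF9 matched by name but had no probe set and were not analysed here.

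The study profiled rice seedlings of the cultivar Pusa Basmati 1, grown in light at 28 °C, in which the transcription factor gene OsbZIP48 had been over-expressed or knocked down. The 10 arrays fell into 5 groups of 2 biological replicates. They were over-expression seedlings (OE), knock-down seedlings whose phenotype was lethal (called KD lethal), knock-down seedlings resembling wild type (called KD wild-type-like) and seedlings of the vector controls B4NU and pANDA. OE was compared with B4NU and both KD groups with pANDA, an RNA interference vector, a pairing that the labels do not state. Age is 10 days in the labels and 7 days in the design text, for every group. Whole seedlings are the labelled tissue, while the extraction protocol names roots. The promoters, the number of lines and any pooling of seedlings were not given in the sources used here. OsbZIP48 itself was paired with no probe set, and the target gene was therefore not checked.

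Cellulose is spun at the plasma membrane by complexes of CESA proteins, with different CESA proteins in the thin primary wall of growing cells and in the thick secondary wall of vessels and fibres. The CSL proteins are their relatives: CSLA members make mannan backbones, CSLC members the glucan backbone of xyloglucan, CSLD members act in tip-growing and expanding cells, and CSLF and CSLH members make the mixed-linkage glucan typical of grasses. XAT enzymes add arabinose to xylan, the main hemicellulose of grasses. UGE enzymes interconvert UDP-glucose and UDP-galactose, and GME enzymes make GDP-galactose, which also feeds ascorbate synthesis.

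Values are deposited log2 signals, in which 1 unit is a doubling, and differences are differences of group means with the standard error (SE) of the fit. A member was called where limma's adjusted p (Benjamini-Hochberg over 57258 probe sets) was under 0.05. Values within 0.5 of the lowest value of a set of arrays are said to be at the floor and carry no order. CESA2, CSLD1, CSLD4, CSLD5, CSLF2 and CSLF7 were at the floor on all 10 arrays, 3 further members were at the floor on some arrays, and 27 on none. Whole seedlings mix many cell types, so fewer cells of a type and less RNA per cell cannot be told apart.

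Some arrays and groups stood apart. The correlation between replicates over all probe sets was 0.950 in OE and 0.981 in KD lethal, against 0.993 to 0.998 in the other groups. The difference between 3′ and other probe sets of the rice control transcripts (ubiquitin, GAPDH and cyclophilin), a measure of RNA integrity and labelling, was -0.16 on OE replicate 1 and 0.37 on KD lethal replicate 2, against 0.91 to 1.85 on the other 8 arrays. The mean log2 signal of 9 green leaf markers was 6.27 and 6.39 in KD lethal seedlings, against 8.74 and 8.73 in pANDA seedlings, and 6 of the 9 fell. That of 7 root markers was 3.17 and 3.22 in KD lethal seedlings, against 6.48 and 6.50 in pANDA seedlings, and 4 of the 7 fell, with NAS1 and NAS2 at the floor in KD lethal. The mean of 5 markers of dividing tissue was 4.77 and 4.36 in KD lethal seedlings, against 5.66 and 5.64 in pANDA seedlings, and 1 of them fell. In the vector controls both leaf and root markers were above the floor on average, and the root hair list had no gene with a probe set. The 4 B4NU and OE arrays and the 6 pANDA and KD arrays were treated as normalized separately, because their lowest values were 2.440 and 2.441 and because they had 0 identical values between them, against 16912 to 20090 between arrays of a set.

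In KD lethal seedlings 5 of the 36 members rose and 4 were called lower, 1 of these at the floor, or 25% of the members beside 26.2% of all 17905 genes (14.5% higher, 11.7% lower). XAT2, CSLE1, UGE-1, CSLH1 and GME-2 rose, and CESA7, CSLF6 and UGE-3 fell. The median difference over the members was -0.01, beside 0.02 over all genes, and 28 members had groups that did not overlap (69.6% of all genes). The share of wall genes called was close to that of genes at large, and members were called in both directions.

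**Figure D1:**
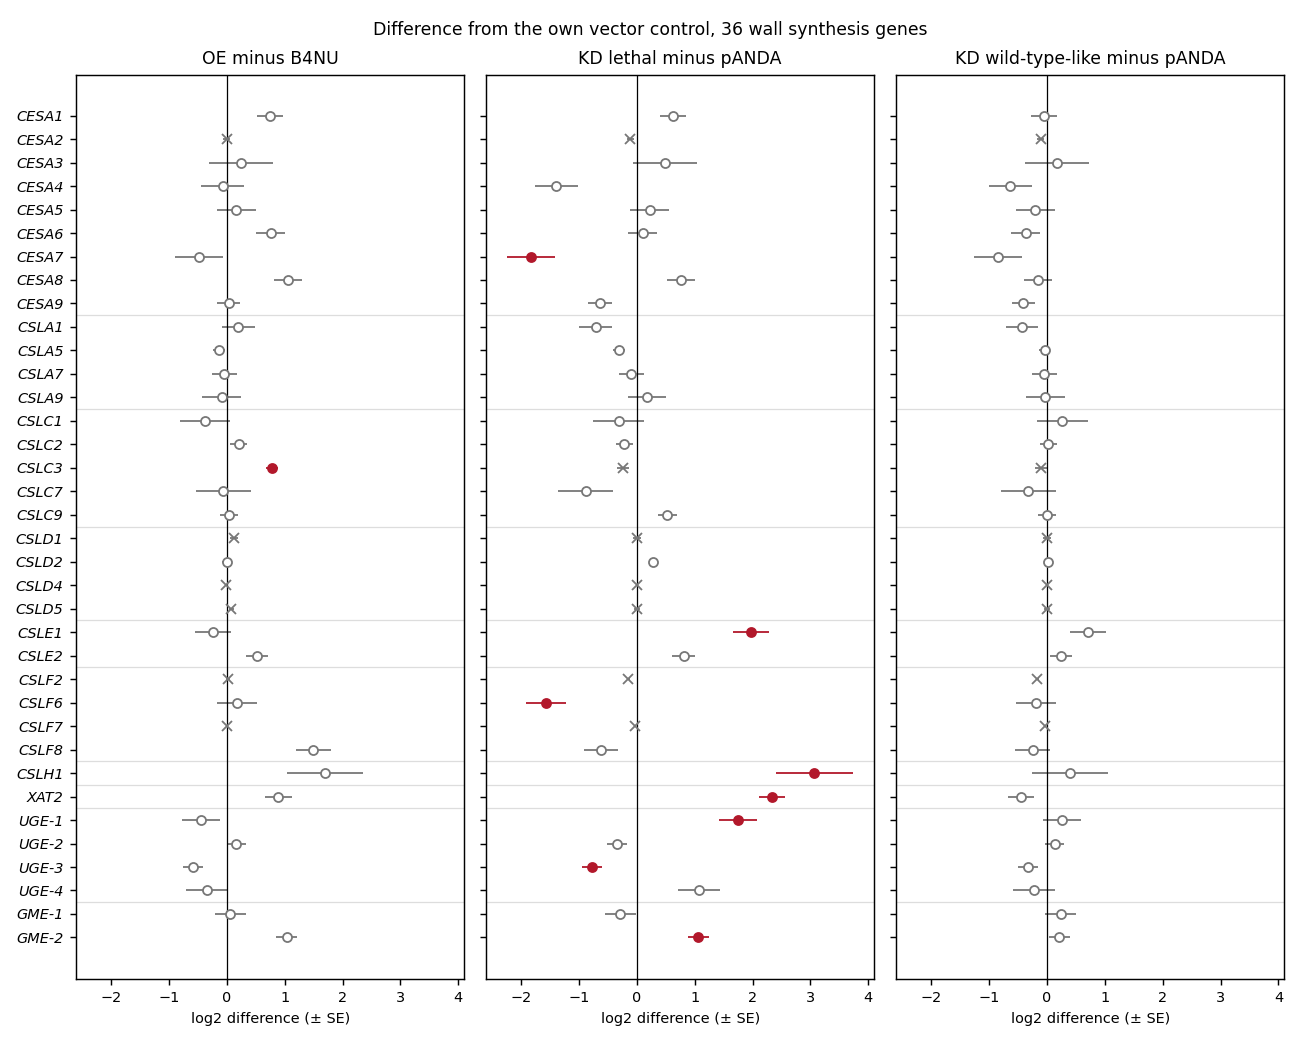
Log2 difference from the vector control (horizontal axis, ± SE of the fit) for the 36 genes (vertical axis, by family) in OE minus B4NU, KD lethal minus pANDA and KD wild-type-like minus pANDA. Filled red points passed an adjusted p of 0.05, open points did not, and crosses mark genes at the floor in both groups; red points are 1 in the left panel, 8 in the middle panel and 0 in the right panel.

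Among the cellulose synthases, the 3 secondary wall genes CESA4, CESA7 and CESA9, in which loss-of-function mutants have brittle culms, were lower in KD lethal seedlings, and CESA7 passed the test. CESA7 had 5.99 and 5.73 in KD lethal seedlings, against 7.72 and 7.67 in pANDA seedlings, with no overlap between the groups. It fell by 1.83 ± 0.41 (SE), 3.56-fold (adjusted p = 0.0463). CESA4 was lower by 1.39 and CESA9 by 0.63 on the log2 scale, and neither passed the test (adjusted p = 0.0799 and 0.132), although neither overlapped. The second probe set of CESA4 was lower by 1.05 (adjusted p = 0.133).

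The other 6 cellulose synthases, of which CESA1, CESA3 and CESA8 are the best known primary wall genes, were called in neither direction, with 2 at an unadjusted p under 0.05. CESA2 was at the floor, and the remaining 5 differed by 0.10 to 0.76 upward. CESA8 had 8.27 and 8.74 in KD lethal seedlings, against 7.78 and 7.70 in pANDA seedlings, and CESA1 had 8.65 and 8.04 in KD lethal seedlings, against 7.72 and 7.72 in pANDA seedlings. Both genes had higher values on both KD lethal arrays, but their adjusted p values were 0.128 and 0.188.

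**Figure D2:**
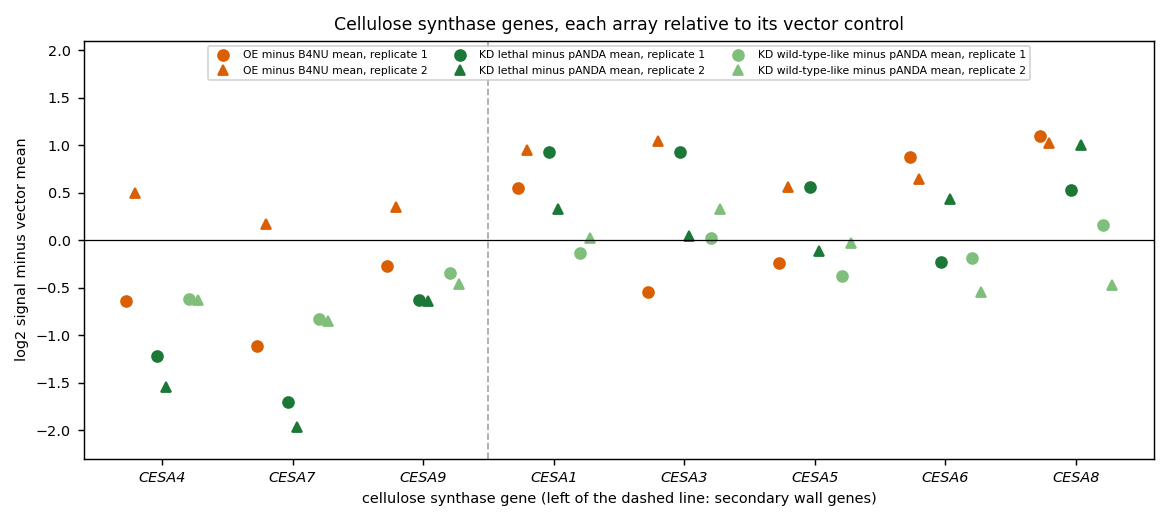
Log2 signal of 8 cellulose synthase genes on each array of OE, KD lethal and KD wild-type-like (vertical axis) minus the mean of the 2 arrays of its vector control, with genes on the horizontal axis; circles are replicate 1 and triangles replicate 2. The 3 secondary wall genes on the left lie below 0 on both KD lethal and both KD wild-type-like arrays, while the 2 OE arrays lie on opposite sides of 0.

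The cellulose synthase-like genes moved in different directions. CSLH1, one of the mixed-linkage glucan synthases, had 7.51 and 8.48 in KD lethal seedlings, against 5.14 and 4.71 in pANDA seedlings. Its groups lay far apart, and it rose by 3.07 ± 0.66 (SE), 8.39-fold (adjusted p = 0.0392). CSLF6, the principal mixed-linkage glucan synthase of vegetative tissue in grasses, had 6.05 and 5.96 in KD lethal seedlings, against 7.66 and 7.50 in pANDA seedlings. It fell by 1.58 ± 0.35 (SE), 2.98-fold (adjusted p = 0.0425), also without overlap. CSLF2, of the same family as CSLF6, passed the test at a difference of -0.15 but was at the floor in both groups, so no direction was read. The 2 called mixed-linkage glucan genes above the floor, CSLH1 and CSLF6, thus moved in opposite directions. The other 2 probe sets paired with CSLF6 were at the floor on every array and give no second reading.

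CSLE1, of a family whose product is not settled, had 8.96 and 9.03 in KD lethal seedlings, against 6.97 and 7.08 in pANDA seedlings. The KD lethal arrays were the highest of the 6 pANDA and KD arrays, and CSLE1 rose by 1.97 ± 0.31 (SE), 3.92-fold (adjusted p = 0.0145). Its family member CSLE2 was higher by 0.81, with an adjusted p of 0.0535, and its other 2 probe sets read 0.51 and 0.01. The 4 CSLA genes ranged from -0.71 to 0.17 and the 5 CSLC genes from -0.88 to 0.53, and 0 of these 9 were called by limma, with 3 at an unadjusted p under 0.05. Among the CSLD genes 3 of 4 were at the floor, and CSLD2 was higher by 0.28 (adjusted p = 0.0827).

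XAT2 differed most clearly of the members by its adjusted p. It had 6.45 and 6.91 in KD lethal seedlings, against 4.33 and 4.36 in pANDA seedlings, without overlap. It rose by 2.34 ± 0.23 (SE), 5.05-fold (adjusted p = 0.00295).

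Of the sugar-nucleotide epimerases, GME-2 had 5.67 and 5.40 in KD lethal seedlings, against 4.46 and 4.49 in pANDA seedlings, and it rose by 1.06 ± 0.18 (SE), 2.09-fold (adjusted p = 0.0192). The other gene of this enzyme, GME-1, differed by -0.28, and its groups overlapped. UGE-1 had 7.92 and 8.17 in KD lethal seedlings, against 6.49 and 6.09 in pANDA seedlings. It rose by 1.75 ± 0.33 (SE), 3.37-fold (adjusted p = 0.0249).

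UGE-3 went the other way, with 4.11 and 4.36 in KD lethal seedlings, against 4.82 and 5.20 in pANDA seedlings, and fell by 0.77 ± 0.17 (SE), 1.71-fold (adjusted p = 0.0460). UGE-2 and UGE-4 differed by -0.34 and 1.08 and were not called. All 4 UGE genes had groups without overlap, 2 in each direction, beside 69.6% of all genes without overlap in this comparison.

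**Figure D3:**
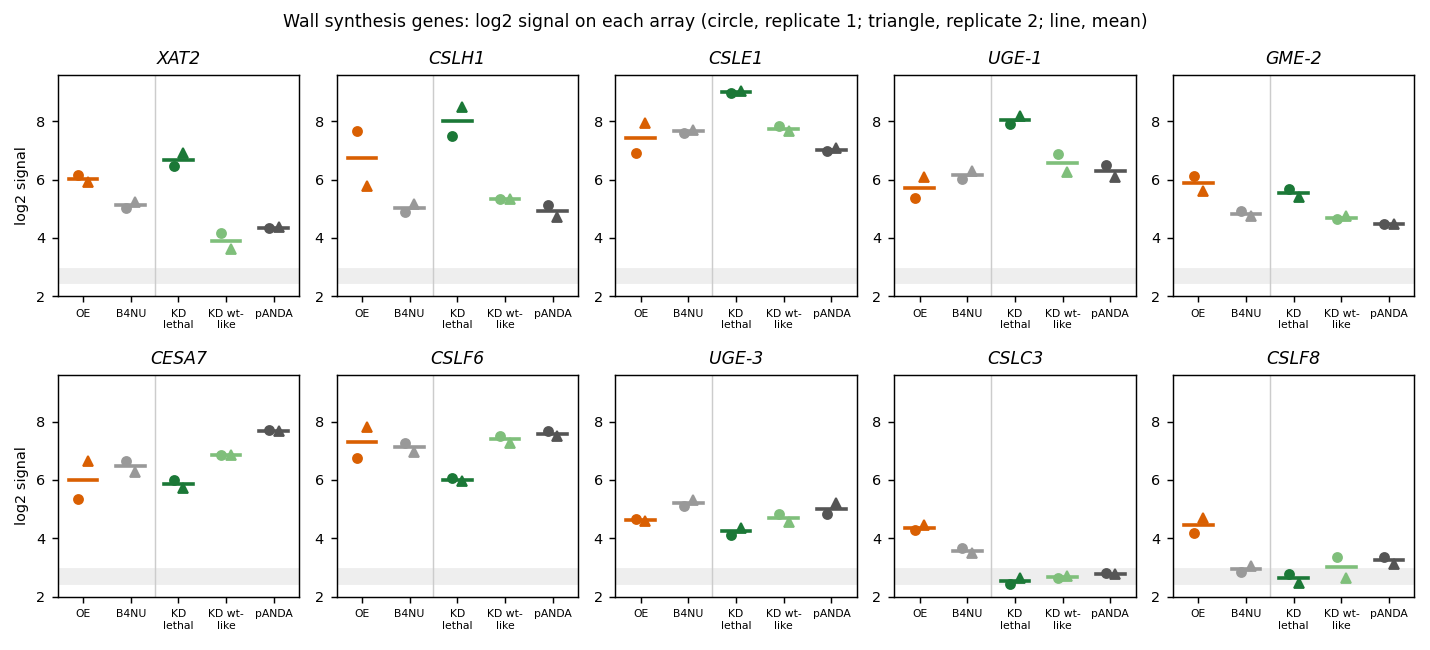
Log2 signal (vertical axis) of 10 genes on each array by group (horizontal axis), with circles for replicate 1, triangles for replicate 2 and lines for group means; the grey band marks values at the floor, and the vertical line separates the 2 sets of arrays. XAT2, CSLH1, CSLE1, UGE-1 and GME-2 lie higher in KD lethal than in pANDA, CESA7, CSLF6 and UGE-3 lower.

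These calls rest on few arrays. XAT2 was called whichever array was left out of the fit. The other members called, and their number, changed with the array left out, and members not named above replaced some of them. Over 20 alternative settings, each array left out in turn among them, the named differences kept their sign. They were 1.54 to 2.57 for XAT2, 1.35 to 2.02 for CSLE1, 1.56 to 1.95 for UGE-1, 2.58 to 3.55 for CSLH1 and 0.71 to 1.20 for GME-2. The lower members had -1.97 to -0.61 for CESA7, -1.70 to -0.53 for CSLF6 and -0.97 to -0.58 for UGE-3. Green leaf and root markers, as given above, fell in the same seedlings; their part in the result was not tested.

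KD wild-type-like seedlings had 0 members called against pANDA by limma, beside 0.363% of all genes (0.134% higher, 0.229% lower), and 1 member at an unadjusted p under 0.05. The median difference was -0.04, beside 0.00 over all genes, and 16 members had groups that did not overlap (47.2% of all genes). That member was CSLF2, at the floor. CSLE1, next by p, had 7.82 and 7.66 in KD wild-type-like seedlings, against 6.97 and 7.08 in pANDA seedlings. Its groups did not overlap, and the difference of 0.71 ± 0.31 (SE) had an adjusted p of 0.979. CSLF7, the third by p, was at the floor. CESA4, CESA7 and CESA9 differed by -0.63, -0.84 and -0.40, each without overlap and none called. CESA7 and CESA9 were higher than in B4NU seedlings, by 0.38 and 0.10, when that vector was the control, a comparison that crosses the sets of arrays, and neither was called. In this group the 9 green leaf markers averaged 8.89 and 8.62, against 8.74 and 8.73 in pANDA seedlings. The 7 root markers averaged 6.17 and 6.16 in KD wild-type-like seedlings, against 6.48 and 6.50 in pANDA seedlings. The 5 markers of dividing tissue averaged 5.12 and 5.31 in KD wild-type-like seedlings, against 5.66 and 5.64 in pANDA seedlings. Of these markers 0 were called by limma, and the part of tissue makeup in the CESA values was not tested.

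KD lethal and KD wild-type-like seedlings were then compared directly, since both carry the knock-down. XAT2, GME-2 and UGE-1 rose and 0 members fell, or 8.33% of the members beside 23.8% of all genes (13.6% higher, 10.2% lower), and 22 members had groups without overlap (65% of all genes). XAT2 had 6.45 and 6.91 in KD lethal seedlings, against 4.16 and 3.63 in KD wild-type-like seedlings, and was higher by 2.78 ± 0.23 (SE), 6.89-fold (adjusted p = 0.00177). GME-2 had 5.67 and 5.40 in KD lethal seedlings, against 4.63 and 4.74 in KD wild-type-like seedlings, a difference of 0.85 ± 0.18 (SE; adjusted p = 0.0432).

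UGE-1 had 7.92 and 8.17 in KD lethal seedlings, against 6.86 and 6.24 in KD wild-type-like seedlings, a difference of 1.49 ± 0.33 (SE; adjusted p = 0.0456). The KD lethal arrays were the higher ones for all 3 genes. CSLH1, CSLE1 and CSLF6 differed by 2.66, 1.26 and -1.38, with adjusted p of 0.0659, 0.0679 and 0.0690. Which members were called, and how many, changed with the array left out. Over 19 alternative settings, each array left out in turn among them, XAT2 stayed higher by 2.52 to 3.05. GME-2 stayed higher by 0.71 to 0.99 and UGE-1 by 1.18 to 1.80.

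**Figure D4:**
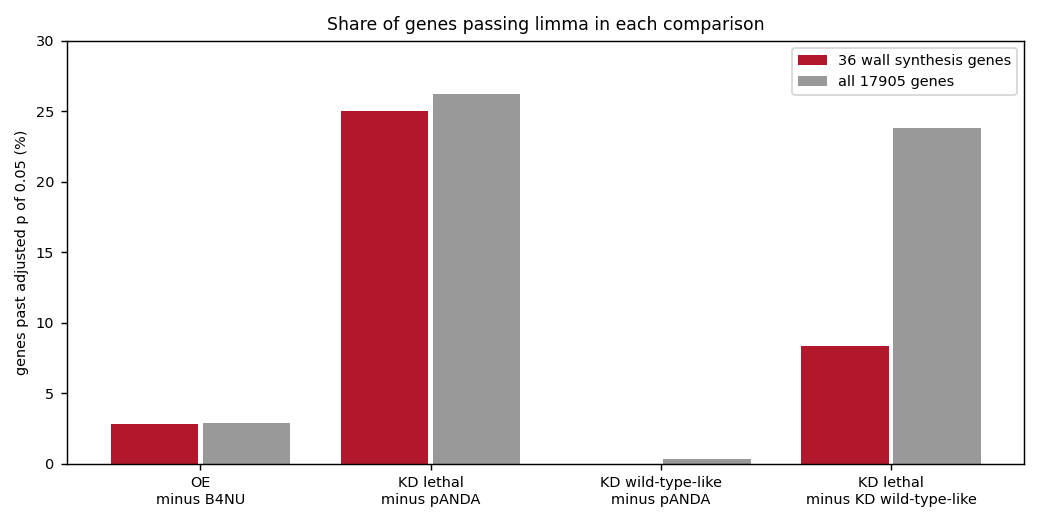
Share of genes past an adjusted p of 0.05 (vertical axis, percent) among the 36 wall synthesis genes (red) and all 17905 genes (grey) in 4 comparisons (horizontal axis). The bars are 2.78% and 2.88% in OE minus B4NU, 25% and 26.2% in KD lethal minus pANDA, 0% and 0.363% in KD wild-type-like minus pANDA, and 8.33% and 23.8% in KD lethal minus KD wild-type-like.

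In OE seedlings 1 of the 36 members rose and 0 fell against B4NU, or 2.78% of the members beside 2.88% of all genes (0.542% higher, 2.33% lower). The median difference was 0.05, beside -0.05 over all genes, and 14 members had groups that did not overlap (38.6% of all genes). The called member was CSLC3, of the xyloglucan backbone family. It had 4.27 and 4.46 in OE seedlings, against 3.67 and 3.49 in B4NU seedlings, without overlap, and rose by 0.79 ± 0.10 (SE), 1.73-fold (adjusted p = 0.0378). The number of called members was 0 without any single B4NU, pANDA, KD wild-type-like or KD lethal array (1.22% to 2.23% of all genes called), 3 without OE replicate 1 (6.62%) and 9 without OE replicate 2 (28.3%).

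The next members by p did not pass. GME-2 had 6.12 and 5.61 in OE seedlings, against 4.92 and 4.75 in B4NU seedlings, a difference of 1.03 ± 0.18 (SE; adjusted p = 0.0866). CSLF8, a neighbour of CSLF2 with 1 gene between them in the RefSeq gene order, had 4.18 and 4.70 in OE seedlings, against 2.83 and 3.05 in B4NU seedlings. Both OE arrays were above both B4NU arrays, of which replicate 1 was at the floor. The difference of 1.50 ± 0.30 (SE) had an adjusted p of 0.121, and because of the floor its size was not read.

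Among the cellulose synthases CESA8 had 9.09 and 9.02 in OE seedlings, against 8.01 and 7.98 in B4NU seedlings, a difference of 1.06 with an adjusted p of 0.164. CESA1 and CESA6 also had groups without overlap, at differences of 0.75 and 0.76, while CESA4, CESA7 and CESA9 overlapped. For 23 of the 36 members the gap between the OE replicates exceeded the difference between the groups, and for 24 members replicate 2 was the higher. CSLH1, for example, had 7.66 and 5.79 in OE seedlings, against 4.88 and 5.17 in B4NU seedlings. OE replicate 1 was also the array with the lowest 3′ difference; the part of RNA quality in these values was not tested. The green leaf markers averaged 8.49 and 8.43 in OE seedlings, against 8.72 and 8.74 in B4NU seedlings, and 2 of 9 fell, and the root markers averaged 5.57 and 6.06 in OE seedlings, against 6.19 and 6.06 in B4NU seedlings, and 1 of 7 fell. The 5 markers of dividing tissue averaged 4.48 and 5.81 in OE seedlings, against 5.635 and 5.57 in B4NU seedlings, and 0 of them were called. The part of these markers was not tested either.

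The OE and KD lethal effects, each against its own vector, could be set side by side because they share no control arrays. In 29 members at least 1 group of each comparison was above the floor. Of these, 9 (31%) had groups that did not overlap in either comparison, beside 37.8% of the 13700 genes in that state. CESA1, CESA8, CSLE2, CSLH1, GME-2 and XAT2 were higher in both, UGE-3 lower in both, and CSLF8 and UGE-2 higher in OE and lower in KD lethal. Among all genes without overlap in either comparison, 26.4% were higher in both, 44.3% lower in both and 29.2% differed in direction. CSLE2 rests on 1 of its 3 probe sets here, since the other 2 read -0.50 and -0.03 in OE, and CSLF8 was at the floor on both KD lethal arrays.

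The difference between the effects was called for 1 member, or 2.78% beside 11.7% of all genes (4.56% higher, 7.18% lower). This was CSLC3, with 1.03 ± 0.15 (SE; adjusted p = 0.0196), but its KD lethal and pANDA arrays were all at the floor, so only the OE side carries an order. CSLF8 (adjusted p = 0.0552) and CSLE1 followed. The KD lethal arrays and B4NU replicate 1 were at the floor for CSLF8, so no size was read, while CSLE1 differed by -2.20 ± 0.44 (SE; adjusted p = 0.0555). With 1 array left out, the called members changed as well as their number, and CSLC3 was not always among them. Over 19 alternative settings, each array left out in turn among them, the CSLC3 value kept its sign, at 0.92 to 1.43.

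Other genes of wall synthesis, matched by name alone, were read in the same fit. Of 14 genes that supply sugar nucleotides, 1 rose and 1 fell in KD lethal seedlings, with a median of 0.00. Among all genes 26.2% were called in this comparison (14.5% higher, 11.7% lower). SUS4, a sucrose synthase, which releases UDP-glucose from sucrose, had 9.56 and 9.70 in KD lethal seedlings, against 6.02 and 5.75 in pANDA seedlings, and rose 13.5-fold (adjusted p = 0.000929). UGD4, a UDP-glucose dehydrogenase, fell by 0.83 (adjusted p = 0.0297).

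Of 17 cellulose accessory genes 1 rose and 1 fell, beside 26.2% of all genes called, with a median of -0.06. BC1L6, a COBRA-like gene, had 5.76 and 5.96 in KD lethal seedlings, against 3.22 and 3.29 in pANDA seedlings, and rose 6.07-fold (adjusted p = 0.000303). GLU5, named as an endoglucanase, was called lower (adjusted p = 0.0499). It was at the floor in KD lethal seedlings, so the size of its difference was not read. Of 22 genes on the hemicellulose transferase list 2 rose and 4 fell, beside the same 26.2% of all genes, with a median of -0.38. IRX14, of the xylan backbone, rose 3.41-fold (adjusted p = 0.00355). AT4, an acyltransferase by its name, fell by 2.31 on the log2 scale (adjusted p = 0.00119). AT4 is also annotated as PMT and may not be a hemicellulose transferase. TBL15 was lower (adjusted p = 0.00640), and XOAT7 was higher by 1.50 (adjusted p = 0.0120). KD lethal replicate 1 was at the floor for TBL15, with 2.89, so the size of that difference was not read.

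In OE and in KD wild-type-like seedlings 0 of the 53 genes on these lists were called by limma, beside 2.88% and 0.363% of all genes. At an unadjusted p under 0.05 there were 7 in OE and 6 in KD wild-type-like. Between KD lethal and KD wild-type-like seedlings, where 23.8% of all genes were called, SUS4 and UAM1 rose, 6.92-fold and 4.27-fold, and BC1L6 rose 6.59-fold. On the hemicellulose transferase list, IRX14 and XOAT7 rose and AT4 and TBL6 fell in the same comparison. The list of secondary wall regulators matched 0 genes.

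The 2 vector controls could be compared only across the sets of arrays, so vector and normalization set cannot be told apart. In pANDA against B4NU seedlings 3 members were called, or 8.33% beside 11% of all genes (3.53% higher, 7.42% lower). CSLD2 had 5.31 and 5.40 in pANDA seedlings, against 4.49 on both B4NU arrays (adjusted p = 0.00264); the same value stood on both OE arrays as well. CSLA5 had 5.46 and 5.35 in pANDA seedlings, against 4.93 and 4.69 in B4NU seedlings (adjusted p = 0.0219). CSLC3 was at the floor in pANDA seedlings, with 2.80 and 2.76, against 3.67 and 3.49 in B4NU seedlings (adjusted p = 0.00954). Dropping 1 array could change which members were called as well as their number. Over 19 alternative settings, each array left out in turn among them, CSLD2 stayed higher by 0.83 to 1.14 and CSLA5 by 0.48 to 0.86. CSLC3 stayed lower.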

How the data were processed

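The authors deposited log2 signals of each probe set, in a table with 1 column for each of the 10 arrays; the log2 scale was inferred from the range of the values. The submitters' processing notes name GCOS and Affymetrix Expression Console (version 1.4.1.46). Summarization and normalization, not given in the sources used here, were left as deposited.

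Tests covered 57258 of 57381 probe sets, without the 123 controls. The platform annotation, updated through the RefSeq table of assembly ASM3414082v1 for names and gene order only, named 1 gene for 22436 probe sets and several for 95; the other 34727 have no name here. Names can be ambiguous: 1 locus carries both CSLA1 and CSLA9 and is called CSLA1 here. Some genes of the other wall lists (RGP1, RGP2, BC1, AT4, GLU5) may be other genes of that name or have another role. Probe sets of CSLC7 and CSLD4 end in x_at and may also bind other transcripts, and related CESA genes may share signal.

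limma 3.58.1 (R 4.3.3) fitted the 5 group means to the 10 arrays in a single linear model, leaving 5 residual degrees of freedom, with two-sided moderated tests and no intensity trend; the code was tested on simulated data. Arrays have no count depth; their number limits the precision, and p-values measure the spread between these replicates.

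Values on every array are given for called members or, where a comparison called fewer than 3, for the 3 members of smallest p, and other wall genes are named only where called, at most 4 a list; CESA1 and CESA8, and CSLH1 in OE, were added after their values were seen. Members and lists were chosen with earlier results of these data known.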

Additional observations from a re-analysis of the deposited data

Results flagged for a closer look

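In KD lethal seedlings 3 members differed from KD wild-type-like seedlings by the test of the difference itself (limma): GME-2 by 0.85 (adjusted p = 0.0432), UGE-1 by 1.49 (adjusted p = 0.0456) and XAT2 by 2.78 (adjusted p = 0.00177), on the log2 scale and higher on both KD lethal arrays each time. Of 19 alternatives, GME-2 and UGE-1 were called in 8 each and XAT2 in 18. The effect of over-expression against B4NU differed from that of the lethal knock-down against pANDA for CSLC3, by 1.03 (adjusted p = 0.0196), with the KD lethal and pANDA arrays at the floor, and was called in 13 of 19 alternatives.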

How the results depend on the processing

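For the 48 pairs of a member and a comparison rerun under the alternatives, 734 results kept their direction and side of the threshold, 129 lost their call, 78 gained one and 4 reversed, none of these 4 called. The reversed values were 0.063 for GME-1 in KD lethal against pANDA without KD lethal replicate 1 (leaving out each array gave -0.63 to 0.063), -0.0009 for CSLE2 in OE with the mean of its probe sets, and 0.38 for CESA7 and 0.10 for CESA9 in KD wild-type-like with the other vector as control. XAT2 in KD lethal against pANDA was called in 19 of 20 alternatives, CSLE1 in 16, GME-2 in 14, UGE-1 in 11 and CESA7 in 10. CSLF6 and CSLH1 were called in 9, UGE-3 in 7, and CSLF2 in 4 of the 19 that kept its probe set. CSLC3 in OE was called in 10 of 20. Leaving out each array in turn gave 0 to 9 called members in OE against B4NU, 1 to 12 in KD lethal against pANDA, 0 to 1 in KD wild-type-like against pANDA, 1 to 11 in KD lethal against KD wild-type-like, 0 to 11 for the difference of effects and 2 to 9 in pANDA against B4NU, against 1, 9, 0, 3, 1 and 3 with all arrays. The lone array of a group was then assumed to vary like the other groups.

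Without OE replicate 1 and KD lethal replicate 2 together, the counts were 5 for OE, 7 for KD lethal against KD wild-type-like, 10 for the difference of effects and 10 for the vectors, beside 10.5%, 40.9%, 27.4% and 32.0% of all genes. With only the arrays of the groups compared, they were 0 for OE, 4 for KD lethal against pANDA, 0 for KD lethal against KD wild-type-like, 0 for the difference of effects and 12 for the vectors, beside 0.067%, 10.7%, 4.56%, 8.26% and 36.5% of all genes; XAT2 then had adjusted p of 0.0666 against pANDA and 0.109 against KD wild-type-like. For the difference of effects, an intensity trend gave 3 (12.2% of all genes) and the mean of a member's probe sets 2 (11.8%). Quantile normalization gave 8 for that difference (15.2%) and 5 between the KD groups (27.9%). Dropping probe sets at the floor on every array gave 4 for OE, 8 between the KD groups and 6 for the difference of effects. Of the genes left, 6.83%, 40.5% and 23.8% were called. With the other vector as control, OE had 7 (5 higher, 2 lower) and KD wild-type-like 5, beside 18.3% and 11% of all genes, and CESA7 in KD lethal differed by -0.61 (adjusted p = 0.420). Beyond the fits with fewer arrays or probe sets, the cause of these shifts was not tested.

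Centring each array on its median moved the median of all genes to 0.23 in OE against B4NU and -0.10 in KD lethal against pANDA, and gave 8 called members (8 higher, 0 lower) for OE, 14 (6 higher, 8 lower) for KD lethal against pANDA, 10 (7 higher, 3 lower) for KD lethal against KD wild-type-like and 10 for the difference of effects, beside 11.4%, 40.3%, 38.2% and 25.0% of all genes.

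The replicate numbers did not pair the samples: of 10 pairs of groups, 2 had correlated deviations over 0.1, with a range of -0.573 to 0.310. With the replicate block, 0 members were called in OE and 4 in KD lethal against pANDA, 3 of them shared with the fit without it. The block left 0 called in KD wild-type-like against pANDA, 3 between the KD groups, 1 for the difference of effects and 2 for the vectors.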
